A study of Mus musculus with 29 samples.

Results

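Solute carriers are membrane proteins that move sugars, amino acids, ions, vitamins, drugs and metabolites across the plasma membrane and the membranes of organelles, and their genes are named Slc followed by a family number. Their RNA was followed in kidney, tertiary lymphoid structures (TLS) and lymph node of NZB/W mice, a lupus-prone F1 cross of NZB and NZW. Of the 13982 genes listed for 14 libraries, 269 had such a symbol, 112 of these had a mean value under 5 over the 10 libraries of proteinuric mice, and Slc12a1 and Slc12a3 were left out by name. The remaining 155 genes are described here, grouped by what they carry and by the ratio of the mean TLS value to the mean kidney value. Of these, 150 are carriers, and 5 (Slc9a3r1, Slc9a3r2, Slc7a6os, Slc4a1ap and Slc2a4rg-ps) only bear a name derived from one, and they were set apart after the table was seen. Because TLS and kidney values chose the grouping, the TLS to kidney ratios are a description with no test. At the edge of the threshold, Slc2a4rg-ps (mean 5.01), Slc14a2 (5.08) and Slc30a1 (5.09) were just inside, and Slc2a4 (4.97), Slc15a3 (4.96) and Slc44a1 (4.67) just outside.

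The 10 libraries of proteinuric, untreated (NZBxNZW)F1 mice comprised 4 of kidney (mice aged 25, 32, 36 and 39 weeks), 3 of TLS (mice of 25, 36 and 39 weeks) and 3 of lymph node (mice of 32, 36 and 39 weeks). TLS were cut by hand, with a loupe, out of the kidney that also gave the kidney library. A further 3 lymph node libraries came from mice of the same cross with anti-dsDNA antibodies (aged 28, 29 and 18 weeks), and 1 from a young mouse of 4 weeks. The antibody-positive lymph nodes were extracted by miRNeasy and the other tissues by TRIzol, so that kit and group cannot be told apart. The mice are named by their age, and values are listed in this order.

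The proximal tubule, the first stretch of the nephron, takes back nearly all filtered glucose, amino acids, phosphate and bicarbonate through carriers in its apical brush border, and secretes organic anions and cations that enter through carriers in its basolateral membrane. Most of these carriers run on the sodium gradient made by the Na,K-ATPase. Leukocytes use other members, above all amino acid carriers of the cell surface and carriers of lysosomes and endosomes, and the Slc25 family serves the inner membrane of mitochondria in all cells.

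In the table, 1 was added to each read number before division by a size factor of the library, and a gene without a read therefore has a value between 0.786 and 1.77. The libraries held 343825 to 443379 reads, and 3 reads were worth a value between 2.36 and 5.32. The share of ribosomal RNA was 55.9% for the 32-week kidney, 32.0% for the 39-week lymph node, 22.3% for the 25-week TLS and at most 5.98% for each other library. The 155 genes took 1.36% to 2.54% of the other reads in kidney, 0.554% to 1.05% in TLS, 0.224% to 0.403% in lymph node of proteinuric mice, 0.296% to 0.372% in lymph node of antibody-positive mice and 0.332% in the young lymph node. The 12 marker genes of the proximal tubule summed to 19450, 17230, 9517 and 6851 in kidney, to 7563, 4175 and 1126 in TLS and to 28.3, 70.1 and 31.9 in lymph node of proteinuric mice. The 7 B-cell markers summed to 0, 15.97, 23.6 and 7.96 in kidney, 328, 348 and 474 in TLS and 722, 901 and 596 in lymph node. The 6 T-cell markers summed to 3.48, 0, 16.03 and 8.84 in kidney, 93.8, 120.2 and 175 in TLS and 306, 300.3 and 320.2 in lymph node. TLS therefore held RNA of tubules beside RNA of lymphocytes. In bulk tissue, fewer cells of a type and less RNA per cell cannot be told apart.

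A stretch of DNA before the start of Slc3a1, the heavy chain of the cystine carrier, is printed because it holds letters that match an HNF4 site. HNF4 is a factor that drives many tubule genes, and RNA of Hnf4a was measured in the same libraries. RefSeq (GRCm38.p6) gave a promoter window, 250 bases before to 50 after the start, for 121 of the 155 genes, and for 30 of the 38 proximal tubule carriers. The letters CAAAGTCCA were found on either strand in 1 of these 30 windows, that of Slc3a1, in 1 of the 121 and in 0.555% of the windows of 27025 genes. The stretch is read 5′ to 3′ on the strand of the gene, and capitals mark the matched letters, which begin 39 bases before the start. A match is a description of these letters and not a bound site, and whether HNF4 acts on Slc3a1 was not tested.
Slc3a1 (chr17:85028283-85028341, + strand): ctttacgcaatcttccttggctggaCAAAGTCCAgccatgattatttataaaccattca

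The factor Hnf4a had values of 196, 108, 60.7 and 95.5 in kidney and 58.9, 16.5 and 11.02 in TLS, and no read in lymph node of proteinuric mice (kidney versus lymph node, adjusted p = 3.6e-06, limma). It was also higher in TLS than in lymph node (adjusted p = 0.00130), and each TLS library was below each kidney library.

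Kidney and lymph node were compared to learn which carriers set kidney tissue apart from lymphoid tissue. Of the 155 genes, 97 (62.6%) were higher in kidney and 7 (4.52%) were higher in lymph node, and 51 were not called, at an adjusted p under 0.05 (limma on log2(value + 1), Benjamini-Hochberg over 7382 genes). The background was 23.0% of all genes tested called higher in kidney and 20.8% called higher in lymph node. The threshold on the mean value favours genes that are high in one of the tissues, so these counts are a description of the list. The same holds, here and below, for the adjusted p of any gene that passed the threshold only through the tissue in which it is high. The median difference on the log2 scale was 2.03 over the 155 genes and -0.05 over all 7382. No read was found in lymph node of proteinuric mice for 58 of the 155, and at most 3 reads in each of these libraries for 77. Called higher in kidney were all 19 carriers of organic anions, cations and urate, 8 of 10 of sugars, 14 of 20 of amino acids and peptides and 6 of 8 of mono- and dicarboxylates. In contrast, 14 of 27 mitochondrial carriers, 8 of 15 metal carriers and 5 of 16 carriers of nucleotide sugars and other organelle substrates were called higher in kidney.

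In TLS versus lymph node, 41 of the 155 genes (26.5%) were higher in TLS and 0 were higher in lymph node (limma), beside 8.87% and 1.69% of all genes tested. The background of genes whose TLS libraries lay all above or all below those of lymph node was 17.4% and 9.48%. The count higher in TLS was between 19 and 60 in the alternatives. It was 23 with a pseudocount of 5, 19 without the 3 libraries rich in ribosomal RNA, and 27 without lymph node of the 32-week mouse, the lowest count with 1 library left out. The shares of all genes above belong to the main fit, and those of the alternatives are not given here. Of the 41 genes, 24 were called in each fit that left out 1 library, and 32 were called with the mouse as a replicate block. Without the libraries rich in ribosomal RNA, the calls lost among the carriers named here were those of Slc13a1, Slc13a3, Slc14a2, Slc16a13, Slc22a13, Slc22a5, Slc23a1, Slc4a4, Slc5a1, Slc5a10, Slc6a13, Slc6a19, Slc7a12 and Slc7a8 (adjusted p between 0.0633 and 0.222). With a pseudocount of 5, they were those of Slc13a1, Slc16a13, Slc22a13, Slc22a5, Slc23a1, Slc4a4, Slc5a1, Slc5a10, Slc6a13, Slc6a19, Slc7a12 and Slc7a8 (adjusted p between 0.0542 and 0.182). The 41 genes include Slc14a2, which passed the threshold on the mean only through TLS, so its call is a description and not a test. The 41 included 13 of 19 carriers of organic anions, cations and urate and 7 of 20 of amino acids. They also included 4 of 5 of osmolytes, creatine and urea (Slc14a2 among the 4) and 0 of 15 of metals.

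**Figure D1:**
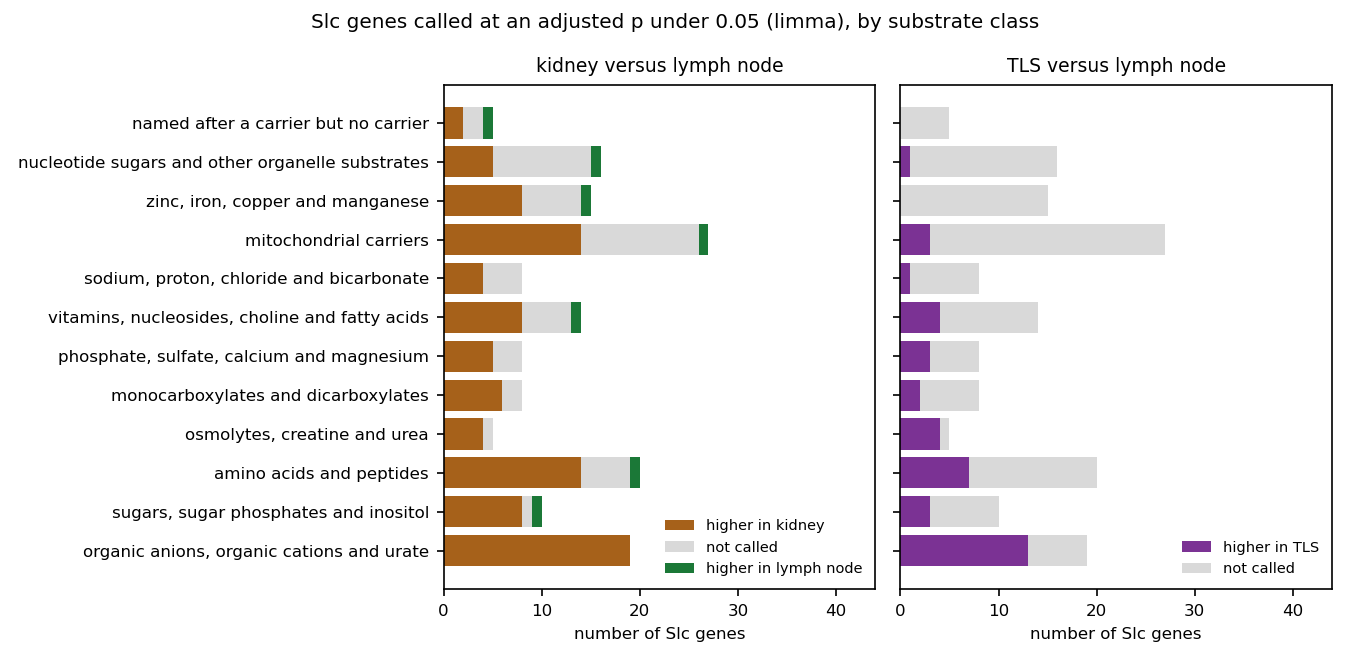
Number of Slc genes (horizontal axis) called in kidney versus lymph node (left) and in TLS versus lymph node (right) of proteinuric mice, by substrate class. All 19 carriers of organic anions, cations and urate were higher in kidney and 13 of them in TLS, and 0 of 15 metal carriers were called in TLS versus lymph node. Of all genes tested, 23.0% were called higher in kidney and 8.87% higher in TLS than in lymph node.

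The TLS mean was below 50% of the kidney mean for 80 of the 155 genes, between 50% and 100% for 48 and above 100% for 27. The median was 48.1%, beside 98.5% over all 7382 genes. The TLS libraries were all below the kidney libraries for 46 genes (29.7%, beside 12% of all genes) and all above them for 6 (3.87%, beside 13.4%). These counts come from the contrast that made the grouping and carry no test. Within a mouse, the median ratio was 36.0% in the 39-week mouse, 59.3% in the 36-week mouse and 45.2% in the 25-week mouse. Without kidney of the 25-week mouse, the median over the 155 genes was 62.4%. Class medians ran from 32.5% for organic anions, cations and urate to 81.6% for nucleotide sugars and other organelle substrates, and 144% for the 5 genes that are no carriers.

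**Figure D2:**
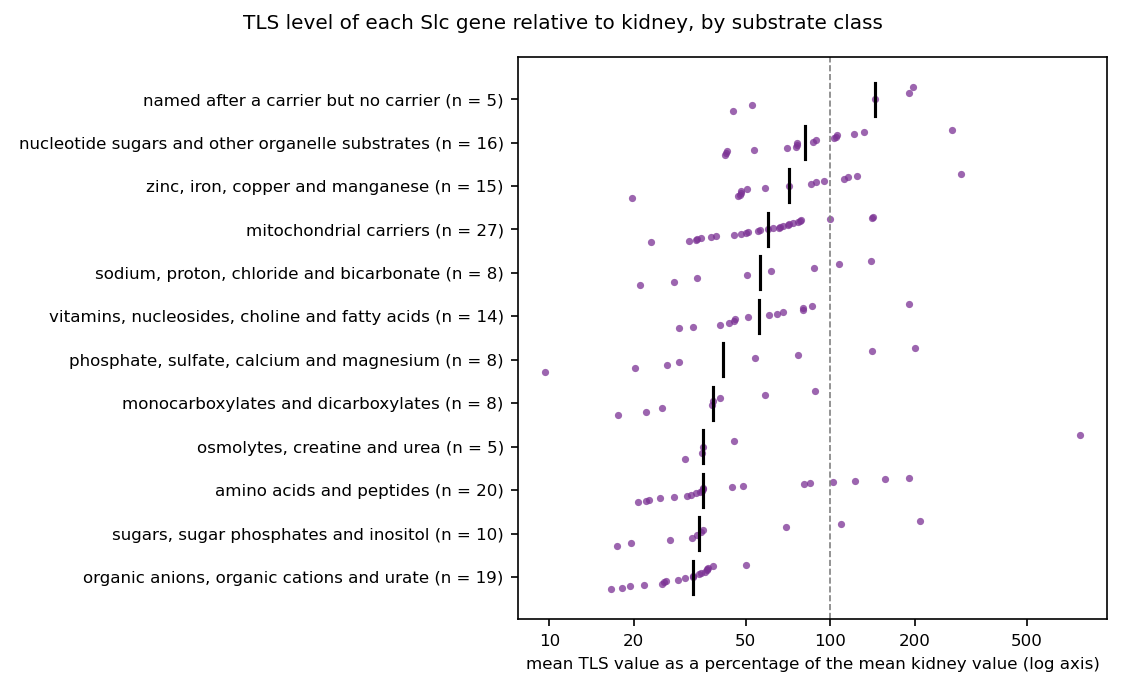
Mean TLS value as a percentage of the mean kidney value (horizontal log axis) for each of the 155 genes (points), by substrate class, with the class median as a black line and 100% as a dashed line. Slc26a1 (9.67%) is the lowest point and Slc14a2 (776%) the highest.

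All 38 carriers placed at the plasma membrane of the proximal tubule were higher in kidney than in lymph node, beside 23.0% of all genes tested. Of the 38, 35 had no read in the 3 lymph node libraries of proteinuric mice. Genes almost absent from lymph node pass the threshold on the mean through kidney or TLS, so these counts are a description of the list. In TLS versus lymph node, 23 of the 38 were called higher in TLS, 16 of 27 apical and 7 of 11 basolateral, beside 8.87% of all genes tested. TLS held a median of 28.9% of the kidney mean, 30.8% for the apical carriers (range 17.4% to 50.6%) and 22.0% for the basolateral ones (range 9.67% to 36.7%). The apical median was 16.0% without TLS of the 25-week mouse and 42.8% without kidney of the same mouse. The median within a mouse was 13.7% in the 39-week mouse, 34.0% in the 36-week mouse and 31.5% in the 25-week mouse for the 38 carriers. Each of the 12 marker genes of the proximal tubule had a TLS mean below its kidney mean (from 21.2% for Miox to 69.2% for Cyp2e1). Their sums in TLS and kidney were 7563 and 19450 in the 25-week mouse, 4175 and 9517 in the 36-week mouse and 1126 and 6851 in the 39-week mouse. Most of each sum was Kap, with 5910, 3361 and 732 in TLS of these mice. How much of the carrier values follows the share of tubule tissue in a TLS library was not tested.

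**Figure D3:**
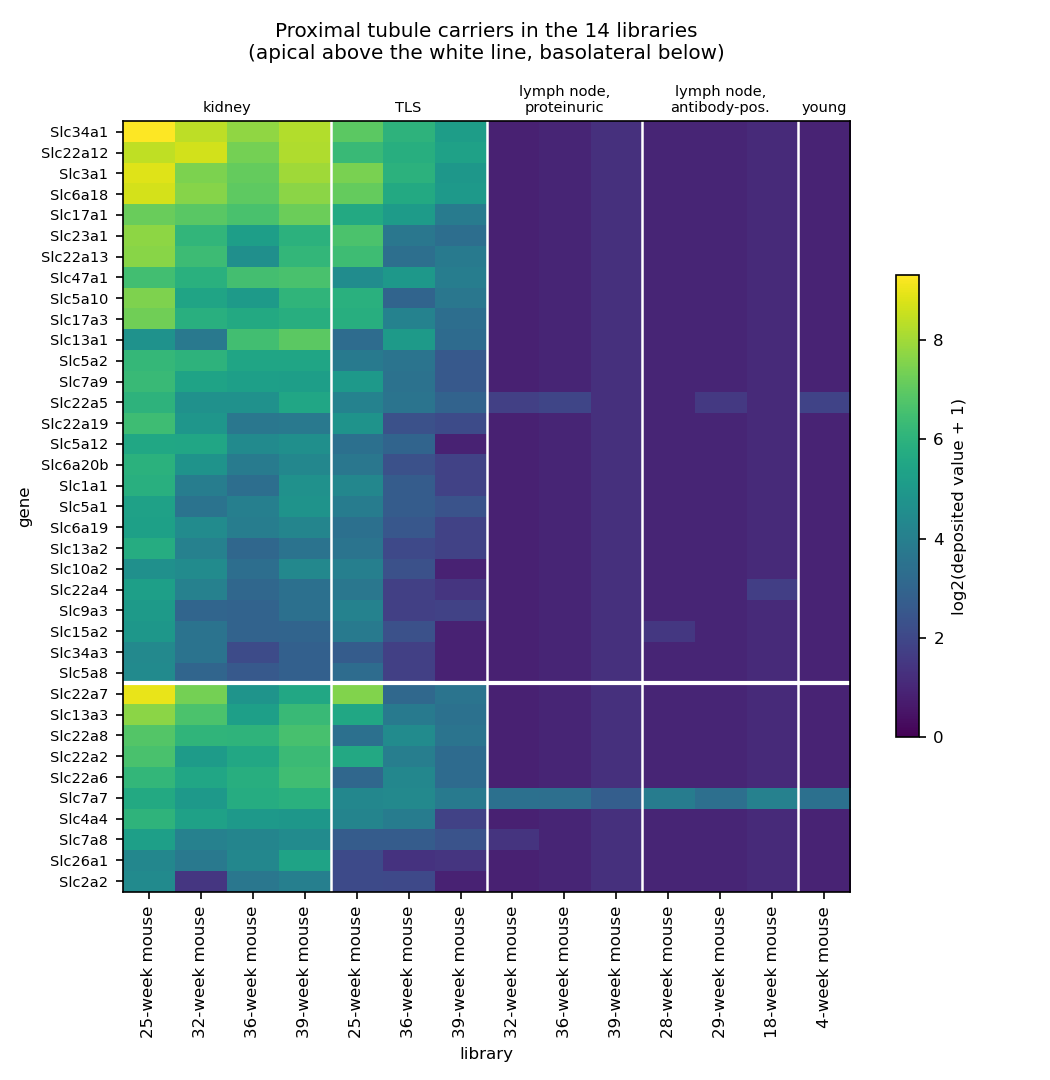
log2(value + 1) (colour) of 37 of the proximal tubule carriers (rows, apical above the white line and basolateral below it) in the 14 libraries (columns). TLS held a median of 28.9% of the kidney mean over all 38 carriers, and Slc7a7 is the row with a signal in each lymph node library.

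Among the carriers of drugs and organic ions, Slc22a12 (urate transporter 1, which takes up urate at the apical membrane) had values of 337, 403, 162 and 292 in kidney and 78.5, 56.6 and 39.01 in TLS, and no read in any lymph node library. Each TLS library was below each kidney library, and the TLS mean was 19.4% of the kidney mean. Kidney was at least 68.4-fold higher than lymph node (adjusted p = 1.3e-07, limma), and TLS at least 13.1-fold higher (adjusted p = 1.5e-05). Here and below, such a bound sets the mean of kidney or TLS against 3 reads in the proteinuric lymph node library in which a read was worth most, and covers counting error only.

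Slc22a6 and Slc22a8 (organic anion transporters 1 and 3, which load anionic drugs and uremic toxins from blood) are neighbours at chromosome 19, 8618039 to 8628299, and at chromosome 19, 8591254 to 8611835 (GRCm38). Slc22a6 had values of 69.5, 44.4, 55.7 and 86.6 in kidney and 7.63, 18.9 and 8.48 in TLS. Slc22a8 had 111, 67.5, 65.8 and 94.6 in kidney and 9.81, 21.2 and 11.02 in TLS. In both genes, kidney exceeded TLS in every library, and the TLS means were 18.2% and 16.5% of kidney. They were higher in kidney than in lymph node, where neither had a read, by at least 14.5-fold and 19.2-fold (adjusted p = 6.1e-07 and 2.8e-07, limma), and in TLS by at least 2.47-fold and 3.02-fold (adjusted p = 8.8e-04 and 2.8e-04).

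The basolateral organic cation transporter Slc22a2 had values of 98.5, 33.7, 46.4 and 80.5 in kidney and 47.98, 14.9 and 8.48 in TLS, and TLS of the 25-week mouse (47.98) reached the kidney range. Slc47a1 (MATE1, which passes organic cations on into urine) had 88.1, 58.6, 91.9 and 99.02 in kidney and 21.8, 29.9 and 14.4 in TLS, 26.1% of kidney (TLS versus lymph node, adjusted p = 4.6e-05, limma). The phosphate and urate carriers Slc17a1 and Slc17a3, 7034 bases apart on chromosome 13, had TLS means of 25.3% and 33.98% of kidney. Their kidney values were 145, 119, 98.7 and 146 for Slc17a1 and 156, 56.8, 49.8 and 56.6 for Slc17a3. Both were called in TLS versus lymph node (adjusted p = 9.1e-05 and 0.00216, limma).

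The other carriers of this class had lower or more scattered values. Slc22a7 (organic anion transporter 2, whose side of the tubule cell is not settled in the mouse) had 509, 163, 26.99 and 46.9 in kidney and 184, 7.86 and 11.02 in TLS, and did not pass the test in TLS versus lymph node (adjusted p = 0.105, limma). Slc22a13 (organic anion transporter 10, a carrier of nicotinate and urate) had 199, 81.7, 23.6 and 69.8 in kidney and 85.05, 9.43 and 12.7 in TLS (adjusted p = 0.0174 in TLS versus lymph node), and the call was lost without lymph node of the 32- or 36-week mouse (adjusted p between 0.0571 and 0.0670). The 25-week mouse gave the highest kidney and TLS library of both genes. The carnitine carrier Slc22a5 had 63.7, 24.9, 25.3 and 44.2 in kidney, 16.4, 11 and 6.78 in TLS and at most 2 reads in lymph node (TLS versus lymph node, adjusted p = 0.0121), and the call was lost without lymph node of the 39-week mouse or TLS of the 25-week mouse (adjusted p between 0.0537 and 0.0562). The ergothioneine carrier Slc22a4, its neighbour, had 37.1, 15.97, 7.59 and 9.72 in kidney and 11.99, 2.36 and 1.70 in TLS and was not called in TLS versus lymph node (adjusted p = 0.267). Slc22a19 had 84.6, 28.4, 11.8 and 12.4 in kidney and 26.2, 3.93 and 3.39 in TLS, and the bile acid carrier Slc10a2 had 24.3, 21.3, 9.28 and 19.4 in kidney and 15.3, 3.93 and 0.848 in TLS, with no Slc10a2 read in TLS of the 39-week mouse. Neither was called in TLS versus lymph node (adjusted p = 0.137 and 0.230).

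Glucose is taken back in the early proximal tubule by Slc5a2 (SGLT2) and further down by Slc5a1 (SGLT1), and leaves the cell through Slc2a2 (GLUT2). Slc5a2 had 73.02, 63.9, 43.02 and 43.3 in kidney and 13.1, 11 and 5.09 in TLS. The TLS mean was 17.4% of kidney, and no TLS library reached a kidney library. Slc5a1 had 39.4, 10.7, 15.2 and 26.5 in kidney and 14.2, 5.50 and 4.24 in TLS, 34.8% of kidney, and TLS of the 25-week mouse was within the kidney range. Slc2a2 had 20.9, 1.77, 11.8 and 15.03 in kidney and 3.27, 3.14 and 0.848 in TLS. Kidney of the 32-week mouse and TLS of the 39-week mouse held no Slc2a2 read. Against lymph node, where the 3 genes had no read, Slc5a2 was higher in TLS (adjusted p = 0.00141, limma), and so was Slc5a1 (adjusted p = 0.0226, but 0.0570 with the mouse as a replicate block). For Slc5a1, the call was lost without lymph node of the 32- or 36-week mouse or TLS of the 25-week mouse (adjusted p between 0.0687 and 0.0997). The exons of Slc5a2 share 597 bases with BC017158 on the other strand. Slc2a2 passed the threshold on the mean only through kidney, so its call in kidney (adjusted p = 0.0124, limma) is a description and not a test. It was not called in TLS (adjusted p = 0.651, limma).

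Slc5a10 (SGLT5, a mannose and fructose carrier of the brush border) had a mean of 34.2 per kb of exon in kidney against 22.2 for Slc37a4, 19.3 for Slc5a2 and 5.59 for Slc5a1. Without kidney of the 25-week mouse, Slc5a10 had 20.1, Slc5a2 17.3 and Slc37a4 15.01 per kb. In kidney of the 32- and 36-week mice Slc5a2 was above Slc5a10 per kb. The deposited values of Slc5a10 were 181, 42.6, 32.9 and 67.2 in kidney and 58.9, 7.07 and 11.9 in TLS (TLS versus lymph node, adjusted p = 0.0152, limma), and the call was lost without lymph node of the 32- or 36-week mouse (adjusted p between 0.0504 and 0.0614). Slc37a4, the glucose-6-phosphate carrier of the endoplasmic reticulum, had 125, 51.5, 32.05 and 45.1 in kidney, 28.4, 10.2 and 12.7 in TLS and 4.86, 6.63 and 4.35 in lymph node. Slc2a1 (GLUT1) is the basal glucose carrier of most cells. Its values were 31.3, 7.10, 12.7 and 24.8 in kidney, 21.8, 13.4 and 27.1 in TLS and 9.71, 7.58 and 4.35 in lymph node, and neither comparison passed the test (adjusted p = 0.0657 and 0.103, limma). Slc50a1 (SWEET1) had 8.11, 7.10, 12.7 and 9.72 in kidney, 13.1, 19.6 and 26.3 in TLS and 24.3, 37.9 and 27.5 in lymph node. It was higher in lymph node than in kidney (difference -1.57 ± 0.32 SE on the log2 scale, adjusted p = 0.00164), and TLS and lymph node overlapped.

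Several amino acid carriers are pairs of a heavy and a light chain. Slc3a1 (rBAT) and Slc7a9 form the brush border carrier of cystine and basic amino acids, whose loss causes cystinuria. Slc3a1 had 454, 178, 136 and 253 in kidney and 172, 62.1 and 29.7 in TLS, and Slc7a9 had 77.7, 40.8, 37.1 and 36.2 in kidney and 30.5, 10.2 and 5.09 in TLS. The TLS means were 34.5% and 31.9% of kidney, and both were called in TLS versus lymph node, where neither had a read (adjusted p = 1.3e-04 and 0.00506, limma). Slc3a2 (CD98), the heavy chain of the basolateral carriers and of activated lymphocytes, had 57.95, 23.1, 56.5 and 69.8 in kidney, 28.4, 39.3 and 64.4 in TLS and 43.7, 53.05 and 40.6 in lymph node. The groups overlapped, and neither comparison passed the test (adjusted p = 0.898 and 0.906). The light chain Slc7a8 had 37.1, 15.97, 17.7 and 21.2 in kidney and 5.45, 5.50 and 4.24 in TLS, 22.02% of kidney, and at most 1 read in lymph node. It was called in TLS versus lymph node (adjusted p = 0.0223, limma), but not with the replicate block (0.118) or by DESeq2's Wald test (adjusted p = 0.0712). The limma call was lost without lymph node of the 32- or 36-week mouse or TLS of the 25- or 36-week mouse (adjusted p between 0.0544 and 0.0859). Slc7a7, the light chain of the basolateral exporter of basic amino acids, was also in lymph node, with 48.7, 31.9, 53.1 and 58.4 in kidney, 18.5, 19.6 and 12.7 in TLS and 9.71, 9.47 and 5.80 in lymph node. It was higher in kidney than in lymph node (difference 2.39 ± 0.32 SE on the log2 scale, adjusted p = 6.9e-05) and was not called in TLS (adjusted p = 0.108).

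The neutral amino acid carriers Slc6a18 and Slc6a19 are neighbours on chromosome 13, 1722 bases apart, and both need collectrin (Tmem27) at the brush border. Slc6a18 had 415, 195, 127 and 202 in kidney and 137, 49.5 and 30.5 in TLS, and Slc6a19 had 38.2, 21.3, 14.3 and 17.7 in kidney and 9.81, 4.72 and 2.54 in TLS. Per kb of exon, the kidney mean was 53.2 for Slc6a18 and 4.57 for Slc6a19. Tmem27 had 378, 410.0, 477 and 397 in kidney and 134, 167 and 39.01 in TLS. TLS held 30.8%, 24.9% and 27.3% of the kidney means. In TLS versus lymph node the adjusted p was 9.2e-05 for Slc6a18 and 0.0434 for Slc6a19 (limma), and 0.113 for Slc6a19 with the replicate block. For Slc6a19, the call was lost without kidney of the 32- or 39-week mouse or lymph node of the 32- or 36- or 39-week mouse or TLS of the 25- or 36-week mouse (adjusted p between 0.0595 and 0.186). The proline carriers Slc6a20a and Slc6a20b, 2205 bases apart on chromosome 9, are close copies among which reads can be shared, and Slc6a20b also shares 1800 exon bases with Sacm1l on the other strand. Their TLS means were 22.7% and 20.7% of kidney. Slc6a20b had 60.3, 26.6, 13.5 and 18.6 in kidney and 11.99, 3.93 and 2.54 in TLS and was not called in TLS versus lymph node (adjusted p = 0.0992).

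The glutamate carrier Slc1a1 had 57.95, 14.2, 9.28 and 24.8 in kidney and 18.5, 5.50 and 2.54 in TLS, and the peptide carrier Slc15a2 had 28.97, 10.7, 6.75 and 7.07 in kidney and 13.1, 3.93 and 0.848 in TLS. Neither was called in TLS versus lymph node (adjusted p = 0.102 and 0.293, limma), and Slc1a1 shares 2631 exon bases with 4430402I18Rik on the other strand. Slc3a1 (601 bases with Prepl) and Slc7a7 (232 bases with Oxa1l) overlap in the same way. Whether reads were counted by strand is not given in the sources used here, and without strand such reads cannot be told apart. Slc7a12, an amino acid carrier of the kidney, had 179.6, 62.1, 30.4 and 61.9 in kidney and 92.7, 26.7 and 3.39 in TLS, so that TLS held 51.6% of kidney in the 25-week mouse, 88% in the 36-week mouse and 5.48% in the 39-week mouse. In TLS versus lymph node its adjusted p was 0.0412 (limma), and the call was lost without kidney of the 32- or 39-week mouse or lymph node of the 32- or 36- or 39-week mouse or TLS of the 25- or 36-week mouse (adjusted p between 0.0581 and 0.117).

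Of the 8 mono- and dicarboxylate carriers, 6 were higher in kidney and 2 in TLS than in lymph node, beside 23.0% and 8.87% of all genes tested. Slc13a3, the basolateral dicarboxylate carrier, had 205, 99.4, 37.1 and 77.8 in kidney and 45.8, 13.4 and 10.2 in TLS (TLS versus lymph node, adjusted p = 0.00438, limma), and the call was lost without the libraries rich in ribosomal RNA (adjusted p = 0.0639). Its apical relative Slc13a2, which takes back citrate, had 53.3, 15.97, 7.59 and 10.6 in kidney and 10.9, 3.14 and 2.54 in TLS and was not called in TLS (adjusted p = 0.197). Slc5a12, the low-affinity lactate carrier of the brush border, had 45.2, 44.4, 21.1 and 23.9 in kidney and 9.81, 7.07 and 0.848 in TLS, with no read in TLS of the 39-week mouse. It was at 17.6% of kidney, and Slc5a8, the high-affinity lactate carrier, was at 40.6% (20.9, 7.10, 5.06 and 6.19 in kidney, 8.72, 2.36 and 0.848 in TLS). Slc16a13 had 26.7, 23.1, 16.03 and 18.6 in kidney, 11.99, 6.29 and 5.94 in TLS and 2.43, 2.84 and 1.45 in lymph node. It passed the test in TLS versus lymph node (adjusted p = 0.0174, limma), but not with the replicate block (adjusted p = 0.0555) or by DESeq2's Wald test (adjusted p = 0.0691). The limma call was lost without lymph node of the 32- or 39-week mouse or TLS of the 25-week mouse (adjusted p between 0.0506 and 0.0862). Slc16a1 (MCT1), a lactate carrier of many cells, had 3.48, 7.10, 5.90 and 7.96 in kidney, 1.09, 7.07 and 2.54 in TLS and 5.67, 7.58 and 7.25 in lymph node, and the 3 tissues overlapped.

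Slc34a1, the main phosphate carrier of the brush border, had the largest TLS over lymph node bound among the phosphate and sulfate carriers. Its values were 629, 328, 218 and 299.7 in kidney and 124, 63.7 and 35.6 in TLS, with no read in lymph node. Kidney was at least 84.6-fold higher than lymph node (adjusted p = 2.6e-07, limma) and TLS at least 16.9-fold (adjusted p = 3.8e-05). Every TLS library was below every kidney library (20.2%). Slc34a3, the second sodium-phosphate carrier, had 19.7, 10.7, 3.37 and 6.19 in kidney and 5.45, 2.36 and 0.848 in TLS. Sulfate enters the tubule cell through apical Slc13a1 and leaves through basolateral Slc26a1. Slc13a1 had 25.5, 12.4, 87.7 and 125 in kidney and 8.72, 32.2 and 8.48 in TLS, and Slc26a1 had 18.5, 12.4, 18.6 and 40.7 in kidney and 3.27, 1.57 and 1.70 in TLS. Slc26a1 had the lowest TLS to kidney ratio of the 155 genes (9.67%), and TLS libraries held 1 or 2 reads of it. Its exons share 141 bases with Idua on the other strand. Slc13a1 was called in TLS versus lymph node (adjusted p = 0.0362), and the call was lost without lymph node of the 32- or 36- or 39-week mouse or TLS of the 25- or 36-week mouse (adjusted p between 0.0699 and 0.128). Slc26a1 was not called in TLS (adjusted p = 0.455). The widely expressed phosphate carrier Slc20a1 had 6.95, 3.55, 10.97 and 22.99 in kidney, 7.63, 8.64 and 9.33 in TLS and 12.1, 11.4 and 5.80 in lymph node, with no call in either comparison (adjusted p = 0.962 and 0.924).

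Sodium and bicarbonate reabsorption in the proximal tubule runs through apical Slc9a3 (NHE3) and basolateral Slc4a4 (NBCe1). Slc9a3 had 32.5, 7.10, 6.75 and 9.72 in kidney and 16.4, 2.36 and 2.54 in TLS, and Slc4a4 had 64.9, 39.05, 31.2 and 29.2 in kidney and 17.4, 14.2 and 2.54 in TLS. Slc4a4 was called in TLS versus lymph node (adjusted p = 0.0166, limma) and Slc9a3 was not (adjusted p = 0.198). The TLS means were 50.6% and 27.7% of kidney. For Slc4a4, the call was lost without lymph node of the 32- or 36-week mouse or TLS of the 25- or 36-week mouse (adjusted p between 0.0555 and 0.0766). Slc9a8 (NHE8), which is also in organelles of many cells, had 110.1, 40.8, 12.7 and 21.2 in kidney, 32.7, 6.29 and 7.63 in TLS and 4.86, 3.79 and 1.45 in lymph node. Slc12a7, a potassium and chloride exporter, had 30.1, 12.4, 11.8 and 18.6 in kidney, 13.1, 8.64 and 11.9 in TLS and 12.1, 10.4 and 2.90 in lymph node (adjusted p = 0.0622 and 0.566). Slc4a9, a bicarbonate carrier of intercalated cells of the collecting duct, had 4.64, 17.8, 18.6 and 16.8 in kidney and 1.09, 5.50 and 2.54 in TLS, 21.1% of kidney. The intercalated cell factor Foxi1 had 3.48, 3.55, 8.44 and 6.19 in kidney and 1.09, 2.36 and 0.848 in TLS.

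Slc14a2, the urea transporter of the inner medullary collecting duct, went the other way. Its values were 3.48, 1.77, 0.844 and 0.884 in kidney, where only the library of the 25-week mouse held any read (2 reads), and 13.1, 5.50 and 22.1 in TLS, and no read was found in any of the 7 lymph node libraries. Each TLS library was above each kidney library. Its mean passed the threshold of 5 only through TLS, the tissue in which it is high, so these values are a description with no test. The collecting duct markers listed went in different directions. Aqp2, the vasopressin-driven water channel, had 45.8, 62.1 and 148 in TLS and 103, 37.3, 44.7 and 38.02 in kidney, and Fxyd4 had 4.36, 19.6 and 21.2 in TLS and 5.79, 1.77, 5.90 and 4.42 in kidney. Hsd11b2, which inactivates glucocorticoids in these cells, had 17.4, 19.6 and 27.1 in TLS, each below each kidney library (42.9, 37.3, 48.9 and 31.8). Aqp3 was at 82.5% of kidney, and Atp6v1g3, of intercalated cells, was at 44.3%. The 6 collecting duct markers listed summed to 86.1, 116 and 214 in TLS and 195, 99.4, 132 and 95.5 in kidney. The 6 urothelium markers summed to 746, 133 and 412 in TLS, 22.02, 0, 14.3 and 16.8 in kidney and 0 in all 3 lymph nodes of proteinuric mice. Whether the part of the kidney that was dissected sets the Slc14a2 values was not tested.

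Among the carriers of vitamins, nucleosides, choline and fatty acids, Slc27a2 stood highest. Slc27a2 (FATP2), which activates and takes up fatty acids, had 993, 394, 242 and 424 in kidney and 348, 94.3 and 56.8 in TLS, and no read in lymph node of proteinuric mice. It had the largest bounds among the 155 genes, at least 118-fold for kidney (adjusted p = 1.1e-06, limma) and at least 38.05-fold for TLS (adjusted p = 7.6e-05). The ascorbate carrier Slc23a1 had 208, 69.2, 36.3 and 61.9 in kidney and 101, 11.8 and 9.33 in TLS (TLS versus lymph node, adjusted p = 0.0158), and the call was lost without lymph node of the 32- or 36-week mouse (adjusted p between 0.0522 and 0.0625). Slc44a2, a choline carrier of many cells and of blood cells, was higher in lymph node than in kidney, with 15.1, 5.33, 16.03 and 19.4 in kidney, 21.8, 22.8 and 35.6 in TLS and 50.2, 44.5 and 20.3 in lymph node (adjusted p = 0.0215). For Slc44a2, the call was lost without lymph node of the 32- or 36-week mouse (adjusted p between 0.0794 and 0.0944). The nucleoside carrier Slc29a1 had 6.95, 8.88, 20.2 and 19.4 in kidney, 5.45, 12.6 and 15.3 in TLS and 17.8, 16.1 and 10.1 in lymph node, and the 3 tissues overlapped.

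The GABA carrier Slc6a13, the taurine carrier Slc6a6 and the creatine carrier Slc6a8 were higher in kidney than in lymph node. Slc6a13 had 85.8, 23.1, 21.1 and 30.1 in kidney and 21.8, 7.86 and 6.78 in TLS. Slc6a8 had 25.5, 17.8, 23.6 and 28.3 in kidney and 11.99, 7.86 and 5.09 in TLS. Both had no read in lymph node and were called in TLS (adjusted p = 0.00839 and 0.00146, limma). The TLS call of Slc6a13 was lost with a pseudocount of 5 (adjusted p = 0.0752) and without the libraries rich in ribosomal RNA (adjusted p = 0.0892). Slc6a6 had 88.1, 30.2, 38.8 and 76.04 in kidney, 33.8, 22.01 and 23.7 in TLS and 17, 15.2 and 5.80 in lymph node, with a difference of 2.11 ± 0.45 (SE, log2 scale) between kidney and lymph node (adjusted p = 0.00225) and no call in TLS (adjusted p = 0.193).

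Of the 15 carriers of metals, 8 were higher in kidney than in lymph node and 1 was higher in lymph node, beside 23.0% and 20.8% of all genes tested. In TLS versus lymph node 0 were called, beside 8.87% of all genes higher in TLS and 1.69% higher in lymph node. Slc48a1, which lets heme out of lysosomes, had 69.5, 49.7, 33.7 and 61 in kidney, 28.4, 20.4 and 26.3 in TLS and 17, 16.1 and 10.1 in lymph node (kidney versus lymph node, adjusted p = 7.7e-04, limma). The zinc carriers Slc39a1 and Slc39a7 had TLS means of 88.7% and 124% of kidney, and neither was called in a comparison with lymph node (adjusted p between 0.412 and 0.990). Slc39a5, another zinc carrier, was at 41.7, 30.2, 10.1 and 13.3 in kidney and 10.9, 2.36 and 0.848 in TLS, and no read in lymph node of proteinuric mice.

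Of the 6 genes placed in leukocytes, 0 were higher in kidney, 2 were higher in lymph node than in kidney and 0 were called in TLS versus lymph node, beside the background given above. Slc11a1 (NRAMP1), which pumps iron and manganese out of phagosomes of macrophages, had 1.16, 1.77, 3.37 and 3.54 in kidney, 3.27, 5.50 and 12.7 in TLS and 13.8, 15.2 and 4.35 in lymph node. It was higher in lymph node than in kidney (adjusted p = 0.0149, limma), and the call was lost without lymph node of the 32- or 36-week mouse (adjusted p between 0.0770 and 0.0816). Slc15a4, the histidine and peptide carrier of endolysosomes of plasmacytoid dendritic cells and B cells, had 5.79, 3.55, 5.90 and 5.30 in kidney, 9.81, 8.64 and 11.02 in TLS and 19.4, 12.3 and 13.04 in lymph node. Its 3 tissues did not overlap, and lymph node was higher than kidney (adjusted p = 0.00182) but was not separated from TLS by the test (adjusted p = 0.331). Slc1a5, a glutamine carrier of dividing lymphocytes, had 9.27, 3.55, 5.06 and 6.19 in kidney, 5.45, 11 and 11.9 in TLS and 13.8, 12.3 and 5.80 in lymph node. Slc38a2, another glutamine carrier, had 24.3, 5.33, 22.8 and 32.7 in kidney, 27.3, 29.9 and 21.2 in TLS and 20.2, 16.1 and 14.5 in lymph node. Neither was called (adjusted p between 0.163 and 0.897). Slc29a3, a nucleoside carrier of lysosomes, had 12.8, 3.55, 10.1 and 10.6 in kidney, 9.81, 4.72 and 7.63 in TLS and 5.67, 4.74 and 1.45 in lymph node. The macrophage markers, 6 genes, summed to 123, 79.9, 376 and 225 in kidney, 423, 384 and 934 in TLS and 799.6, 1034 and 638 in lymph node.

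Beside Slc15a4, Slc11a1, Slc44a2 and Slc50a1, the genes higher in lymph node than in kidney were Slc46a3, Slc25a22 and Slc7a6os. Slc46a3, a carrier of lysosomes, had 3.48, 3.55, 1.69 and 1.77 in kidney, 6.54, 6.29 and 8.48 in TLS and 8.09, 9.47 and 5.80 in lymph node (adjusted p = 0.00729, limma). Each of its TLS libraries was above each kidney library. The mitochondrial glutamate carrier Slc25a22 had 3.48, 1.77, 4.22 and 3.54 in kidney, 2.18, 3.93 and 7.63 in TLS and 8.90, 13.3 and 5.80 in lymph node. Its adjusted p was 0.0296 (limma), 0.0604 with the replicate block and 0.0567 by DESeq2's Wald test. The limma call was lost without kidney of the 32-week mouse or lymph node of the 32- or 36-week mouse (adjusted p between 0.0653 and 0.150). Slc7a6os, which is no carrier, had 9.27, 7.10, 12.7 and 9.72 in kidney, 9.81, 23.6 and 22.1 in TLS and 18.6, 26.5 and 28.98 in lymph node (adjusted p = 0.0104). The number of the 155 genes higher in lymph node was 4 without lymph node of the 32-week mouse or of the 36-week mouse, and 11 with all 7 lymph node libraries. The shares of all genes in these fits are not given here.

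**Figure D4:**
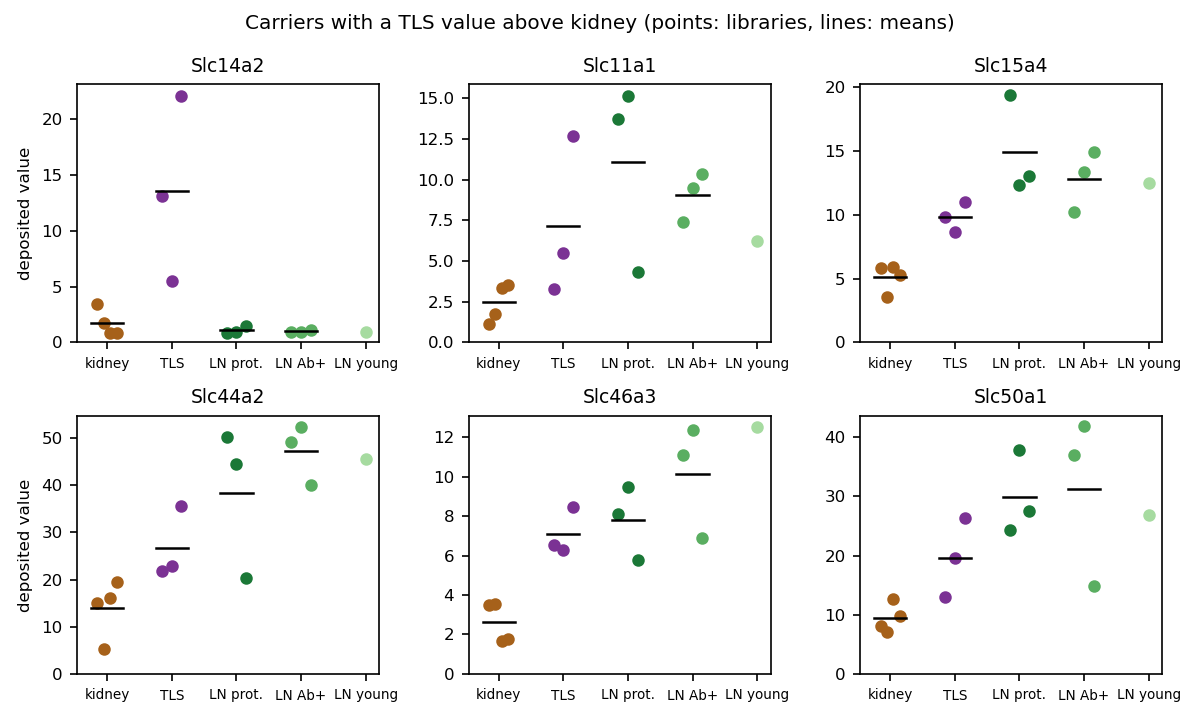
Deposited value (vertical axis, from 0) of 6 carriers in kidney, TLS and the lymph node groups, with libraries as points and means as lines. Slc14a2 has TLS values of 13.1, 5.50 and 22.1 and lymph node values at the level of no read, while for the other 5 genes the TLS mean lies between those of kidney and of lymph node of proteinuric mice.

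Mitochondrial carriers were in all 3 tissues, and 25 of the 27 had reads in at least 1 lymph node library of proteinuric mice. The ADP/ATP carrier Slc25a5 had 583, 330.1, 334 and 306 in kidney, 383, 213 and 169 in TLS and 122, 146 and 256 in lymph node. It was called higher in kidney (adjusted p = 0.0428, limma), but not with the replicate block (adjusted p = 0.0963), and the call was lost without kidney of the 25- or 32- or 36- or 39-week mouse or lymph node of the 32- or 36-week mouse or TLS of the 36-week mouse (adjusted p between 0.0516 and 0.138). The edgeR test did not call Slc25a5 either (adjusted p = 0.0620 with TMM and 0.0892 with DESeq2 size factors). Processed copies of this gene elsewhere in the genome can share its reads. The phosphate carrier Slc25a3 had 159.9, 108, 93.6 and 64.5 in kidney, 78.5, 60.5 and 53.4 in TLS and 38.9, 40.7 and 47.8 in lymph node, and was higher in kidney than in lymph node (adjusted p = 0.0132). Slc25a39, which imports glutathione, had 241, 192, 121 and 164 in kidney, 82.9, 42.4 and 54.3 in TLS and 15.4, 33.2 and 18.8 in lymph node (adjusted p = 5.6e-05), and its TLS to kidney ratio was 33.2% in the 39-week mouse, 35.2% in the 36-week mouse and 34.4% in the 25-week mouse. The ornithine carrier Slc25a15 had no read in lymph node of proteinuric mice, and 28.97, 42.6, 22.8 and 30.9 in kidney and 8.72, 8.64 and 4.24 in TLS, the lowest ratio of the mitochondrial carriers (22.99%). The iron importer Slc25a37 (mitoferrin 1) had 3.48, 1.77, 5.06 and 5.30 in kidney, 4.36, 6.29 and 5.94 in TLS and 8.09, 11.4 and 4.35 in lymph node. It was not called in kidney or in TLS versus lymph node (adjusted p = 0.0960 and 0.642, limma).

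The carriers of nucleotide sugars and other organelle substrates had TLS to kidney ratios from 42.1% to 271% and a median of 81.6%. Slc35b1, the ADP/ATP exchanger of the endoplasmic reticulum, had 18.5, 14.2, 24.5 and 24.8 in kidney, 30.5, 20.4 and 23.7 in TLS and 18.6, 26.5 and 31.9 in lymph node. Slc35b2, which brings the sulfate donor into the Golgi apparatus, had 18.5, 17.8, 20.2 and 20.3 in kidney, 13.1, 12.6 and 17.8 in TLS and 15.4, 12.3 and 14.5 in lymph node. Slc33a1, the acetyl-CoA carrier of the endoplasmic reticulum, had 46.4, 26.6, 20.2 and 16.8 in kidney, 21.8, 15.7 and 6.78 in TLS and 5.67, 4.74 and 14.5 in lymph node, and was higher in kidney than in lymph node (adjusted p = 0.0132, limma). For Slc33a1, the call was lost without lymph node of the 32- or 36-week mouse (adjusted p between 0.0582 and 0.0650). Among the genes that are no carriers, the scaffold Slc9a3r1 (NHERF1) of the brush border had 166, 90.5, 65.8 and 91.95 in kidney, 53.4, 27.5 and 58.5 in TLS and 43.7, 46.4 and 40.6 in lymph node (kidney versus lymph node, adjusted p = 0.0294, and 0.0584 with the replicate block), and the call was lost without kidney of the 25-week mouse or lymph node of the 32- or 36- or 39-week mouse (adjusted p between 0.0634 and 0.0856). The other scaffold, Slc9a3r2, had 25.5, 28.4, 36.3 and 30.1 in kidney, 20.7, 13.4 and 13.6 in TLS and 8.09, 9.47 and 4.35 in lymph node.

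Per kb of exon, high kidney levels were those of Slc25a5 (236), Slc27a2 (137), Slc22a12 (132), Slc3a1 (112), Slc22a7 (88.8) and Slc34a1 (78.9). These are mean values divided by the exon length in GENCODE M21, and the gap between Slc22a7 and Slc34a1 is within the spread of the libraries.

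Kidney libraries differed from mouse to mouse. Of the 68 genes with a mean kidney value of at least 20, 52 were highest in the 25-week mouse, 13 in the 39-week mouse, 2 in the 32-week mouse and 1 in the 36-week mouse, and the highest library was a median of 2.55 times the lowest (range 1.38 to 18.9 times). The widest range was that of Slc22a7, with 509, 163, 26.99 and 46.9. Slc22a13 (8.44 times) and Slc23a1 (5.72 times) also had their highest kidney value in the 25-week mouse. Slc13a1 went the opposite way, with 25.5, 12.4, 87.7 and 125, lowest in the 32-week and 25-week mice and highest in the 39-week mouse. TLS of the 25-week mouse was likewise the highest of the 3 TLS libraries for Slc22a7 (184, 7.86 and 11.02) and Slc23a1 (101, 11.8 and 9.33). For Slc22a8 (9.81, 21.2 and 11.02) and Slc22a6 (7.63, 18.9 and 8.48), the TLS library of the 25-week mouse was the lowest of the 3, although kidney of this mouse was not the lowest of its group. Thus TLS held 8.82% of the kidney value of Slc22a8 in the 25-week mouse, 32.2% in the 36-week mouse and 11.7% in the 39-week mouse, whereas for Slc23a1 the shares were 48.9%, 32.5% and 15.1%. The proximal tubule markers Lrp2 (megalin) and Miox had kidney values of 468, 137, 55.7 and 74.3 and 807, 1012, 635 and 543. The 25-week mouse was also the youngest of the proteinuric mice, and with 1 library per mouse its age and its tissue cannot be told apart.

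**Figure D5:**
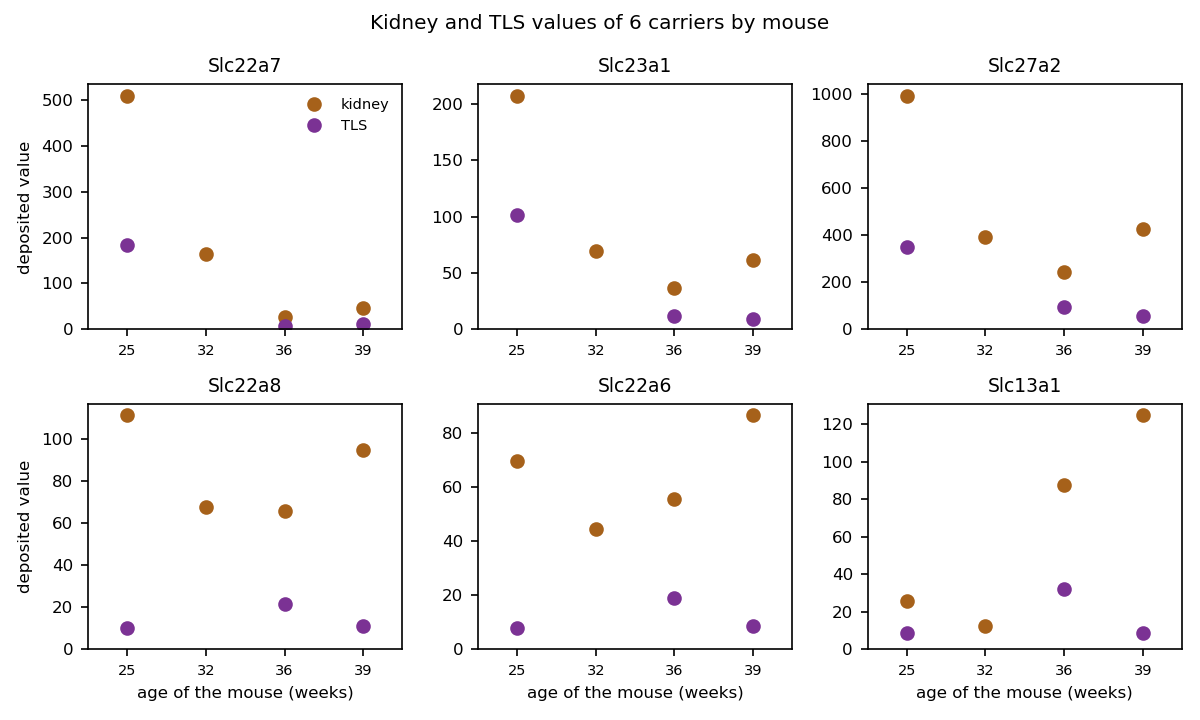
Deposited values (vertical axis, from 0) of 6 carriers in kidney and TLS of each proteinuric mouse (horizontal axis, age in weeks). Slc22a7, Slc23a1 and Slc27a2 are highest in kidney of the 25-week mouse, Slc13a1 is highest in kidney of the 39-week mouse, and the 32-week mouse has no TLS library.

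Lymph nodes of antibody-positive mice were compared with those of proteinuric mice. In this comparison the antibody-positive mice were all younger, and their lymph nodes were extracted with another kit. Disease stage, age and kit therefore cannot be told apart. Of the 66 of the 155 genes that passed the threshold on these 6 libraries, 0 were called by limma, by edgeR or by DESeq2, beside 0.00% of all 6810 genes tested in either direction by limma. At an unadjusted p under 0.05, limma gave 2 of the 66 (3.16% of all genes), edgeR's quasi-likelihood test 2 with TMM and 3 with DESeq2 size factors, and DESeq2's Wald test 0. The 2 genes, named after their values were seen, were Slc1a5, with 14.8, 23.8 and 24.1 in antibody-positive and 13.8, 12.3 and 5.80 in proteinuric mice (limma, adjusted p = 0.998), and Slc27a1, with 7.42, 16.2 and 19.5 and 5.67, 8.53 and 2.90 (limma, adjusted p = 0.998). The antibody-positive libraries were all above the proteinuric ones for 6 of the 66 genes and all below them for 0, beside 6.08% and 2.50% of all genes. Of the tubule carriers, Slc22a5, Slc22a4, Slc15a2 and Slc7a7 alone among the 38 had any read in the antibody-positive lymph nodes.

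Other genes of tubule transport were counted from lists. Of the 10 partners of carriers tested, 8 were higher in kidney and 7 in TLS than in lymph node (limma), beside 23.0% and 8.87% of all genes tested. Pdzk1, which anchors brush border carriers, had 470.5, 215, 136 and 149 in kidney and 144, 32.2 and 24.6 in TLS (adjusted p = 4.6e-04 in TLS versus lymph node), and Atp1b1, a subunit of the Na,K-ATPase, had 598, 300.0, 258 and 263 in kidney and 258, 152 and 132 in TLS (adjusted p = 1.5e-05). The 2 partners not called in either comparison were Emb and Bsg (basigin), the chaperones of lactate carriers. Of the 9 ABC transporters, 8 were listed and 5 tested, all 5 were higher in kidney and 1, Abcg2, in TLS (adjusted p = 0.00591), beside the same shares of all genes. Of the 13 organic anion transporting polypeptides, 5 were listed and 1 tested, Slco1a6, with 161, 63.9, 29.5 and 53.05 in kidney and 70.9, 14.2 and 5.09 in TLS (adjusted p = 0.0229). The call was lost without lymph node of the 32- or 36- or 39-week mouse or TLS of the 36-week mouse (adjusted p between 0.0533 and 0.0832). It was also lost with a pseudocount of 5 (adjusted p = 0.107) and without the libraries rich in ribosomal RNA (adjusted p = 0.140).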

How the data were processed

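Poly(A) RNA was sequenced by the authors on an Ion Torrent PGM and counted with CLC Genomics Workbench on GRCm38, and the strand setting is not given in the sources used here. The deposited signal is a read count plus 1 divided by a size factor, and whole reads were recovered for 100% of the values within 2.9e-10. Groups follow the sample labels. Genes averaging 5 or more were tested with limma 3.58.1 (R 4.3.3, trend and robust) on log2(value + 1), with 1 fit over kidney, TLS and lymph node of 10 libraries and Benjamini-Hochberg adjustment over all genes. A fold change on this scale understates the change of low genes. edgeR 4.0.16 and DESeq2 1.42.0 on recovered reads, other pseudocounts and filters, left-out libraries and the mouse as a replicate block were alternatives. Same-numbered libraries come from one mouse. Their deviations from the group means correlated with a median r of 0.114 (8 pairs), against 0.0353 for different mice (25 pairs), and in the 3 pairs of kidney and TLS r was 0.351 to 0.454 (median 0.364). Scripts were tested on simulated data. Bounds cover counting error only, while each SE printed with a log2 difference is that of limma, from the spread between libraries. Carriers were named by rank in class, by fold change and by place. Slc16a1, Slc20a1, Slc25a15, Slc25a22, Slc25a37, Slc27a1, Slc29a1, Slc2a1, Slc39a5, Slc6a20a and Slc7a12 were named after their values were seen. The members and lists were chosen with earlier results of these data known. Some items are not reported here.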

Additional observations from a re-analysis of the deposited data

Results flagged for a closer look

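In the 4 kidney libraries, 7 of the 69 genes examined had 1 library far from the others by Dixon's ratio, the gap to the nearest library divided by the whole range. The ratios exceeded the 95% critical value for 4 samples, and chance flags about 1 in 20 independent groups. The 69 genes share the same 4 libraries, so their flags are not independent and cannot be weighed against that rate. In 6 of them the library of the 25-week mouse was the highest: Slc17a3 had a ratio of 0.934, Slc25a5 of 0.899, Slc7a9 of 0.89, Slc9a3 of 0.884, Slc5a8 of 0.871 and Slc6a13 of 0.861. In Slc4a9, a carrier of intercalated cells, the same library was the lowest (ratio 0.874, value 4.64).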

How the results depend on the processing

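With the mouse as a replicate block, 100 of the 155 genes were called between kidney and lymph node in place of 104. Between TLS and lymph node, 33 were called in place of 41. For this and the other alternatives between tissues, the share of all genes called is not given. The counts therefore do not tell whether the 155 genes lost more calls than other genes. The calls that the block removed among the carriers named here stand beside those genes, except that of Slc14a2. The Slc14a2 values are a description with no test, because this gene passed the threshold on the mean only through TLS. A mean value of at least 10, which leaves fewer genes tested, gave 65 calls between kidney and lymph node, 62 higher in kidney and 3 higher in lymph node. With all 7 lymph node libraries, 11 were higher in lymph node than in kidney. Between TLS and lymph node, 23 were called with a pseudocount of 5 and 19 without the libraries rich in ribosomal RNA, where fewer samples enter, and the cause of the former was not tested. With 1 library left out, 96 to 106 genes were called between kidney and lymph node, 4 to 10 were higher in lymph node, 27 to 46 were called between TLS and lymph node, and the median TLS to kidney ratio was 40.9% to 62.4%. Other alternatives also removed limma calls of genes named here. With no filter except 1 read, these were Slc25a5 in kidney and Slc7a12, Slc13a1 and Slc6a19 in TLS (adjusted p between 0.0521 and 0.0708). A mean value of at least 10 removed Slc6a19 and Slc7a8 in TLS (adjusted p = 0.106 and 0.0798). With only the 2 tissues compared, Slc7a12, Slc16a13, Slc6a19 and Slc7a8 were lost in TLS (adjusted p between 0.0540 and 0.113). Between lymph node groups, 0 were called in all alternatives run. The alternatives gave 1959 values for 94 pairs of a gene and a comparison, and these values share libraries. Of the 1959, 1846 kept their direction and stayed past the threshold, 113 kept only their direction and 0 reversed. The calls between TLS and lymph node were less stable than those between kidney and lymph node. Between kidney and lymph node, 58 of 64 genes stayed past the threshold in all alternatives. Between TLS and lymph node, 16 of 30 did, and Slc14a2 is counted among the 30. At this depth, genes with a few reads in TLS, such as Slc26a1, could not be separated from lymph node.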

Other observations

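Slc25a1, the mitochondrial citrate carrier that feeds fatty acid synthesis, varied among lymph nodes, with 15.8, 60.9 and 141 in antibody-positive mice, 14.6, 60.6 and 15.9 in proteinuric mice and 47.4 in the young mouse. The 6 adipocyte markers summed to 48.2, 326 and 1607 in antibody-positive mice, 92.3, 566 and 284 in proteinuric mice and 391.9 in the young mouse, and their part in the Slc25a1 values was not tested.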
